A study of Mus musculus with 3 samples.

Results

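Among the droplet barcodes of 3 mouse pancreatic tumour libraries, 4488 passed the filters. Of these, 1899 drew at least 10% of their UMIs (unique molecular identifiers, each standing for a captured RNA molecule) from Gm42418 and AY036118. The 1899 barcodes also drew under 2% from Gm26917. Gm42418 and AY036118 overlap on a ribosomal RNA locus of chromosome 17, and Gm26917 lies just upstream at the same locus. The 1899 barcodes were selected on these measured values and are called rRNA-rich barcodes here. To pass the filters, a barcode needed a minimum of 1000 UMIs and of 500 genes. Mitochondrial genes (the mt- genes) could make up no more than 20% of its UMIs. Its own library had to hold a share of at least 60% when its UMIs in all 3 are pooled. Barcodes that passed these filters with under 10% from Gm42418 and AY036118 number 2433 and are the comparison barcodes. The limit on Gm26917 was not applied to them. Another 156 barcodes reached 10% but exceeded the limit on Gm26917 and belong to neither class. A further comparison used the 196288 barcodes of 10 to 100 UMIs. The high locus share is therefore how the barcodes were found, and it is described below without a test.

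All 3 libraries carry the same labels and form 1 group. Donor mice had the genotype Msi2-Myc; R26-LSL-tdTomato, named in the series title as Musashi2-CreER-MycT58A, a tamoxifen-activated Cre named for Musashi2 with a mutant Myc. Epithelial cells positive for tdTomato were sorted 5 weeks after tamoxifen, placed into the pancreas of immunodeficient NSG mice, and the end-stage tumours were sorted for EpCAM+ cells before loading on a droplet chip. The question stated for the study is whether uncommitted precancerous cells can form several tumour subtypes; the title names ASCP, PDAC and ACC, but no library is assigned to a subtype by its labels, and the labels do not say whether the tumours share a donor. The p-values below thus rest on how far differences between classes vary over these 3 libraries. The estimate of that spread is partly shared across genes, so a p-value does not follow the spread of its own gene alone.

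Ribosomal RNA is transcribed by RNA polymerase I in the nucleolus, processed there, and exported in ribosomal subunits. It makes up most of the RNA of a cell, but it is not polyadenylated, and a 3' droplet library primes on runs of A. Mitochondrial mRNAs, by contrast, are polyadenylated inside the organelle. What gave rise to the barcodes described here was not tested.

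In the GENCODE annotation of mm10, Gm42418 lies at chr17:39846958-39848788 on the plus strand. AY036118 lies at chr17:39847113-39848035 on the minus strand, and its 923 bases are the exact reverse complement of bases 156 to 1078 of Gm42418. Both fall inside CT010467.1, an annotated rRNA gene at chr17:39846353-39848827 on the minus strand, the strand opposite to Gm42418. Gm26917 ends just before Gm42418, at chr17:39843013-39846341. Because no label or header records whether the authors' counting used strand, UMIs of the overlapping pair may not be separable. Neither gene holds a run of 10 or more A. The longest is 6 bases in Gm42418 and 4 in AY036118, against a median of 5 over the longest transcripts of 55450 genes. Bc1, a small noncoding RNA made by RNA polymerase III and best known from neurons, came with the rule as a marker of these barcodes and stands at the other extreme: its 168 bases at chr7:144914470-144914637 hold a run of 23 A, a length reached by 0.687% of genes. The windows around the longest runs are shown for these 3 noncoding RNAs, with the A run in capitals, because Gm42418 and AY036118 select the barcodes and Bc1 has the longest A run among the markers.
Bc1 (bases 1 to 168, plus strand): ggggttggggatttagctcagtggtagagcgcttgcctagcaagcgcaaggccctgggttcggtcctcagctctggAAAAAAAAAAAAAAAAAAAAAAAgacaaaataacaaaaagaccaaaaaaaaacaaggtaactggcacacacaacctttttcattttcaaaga
Gm42418 (bases 183 to 242, chr17:39847140-39847199, plus strand): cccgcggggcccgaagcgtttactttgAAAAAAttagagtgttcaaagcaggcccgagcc
AY036118 (bases 632 to 691, chr17:39847345-39847404, minus strand): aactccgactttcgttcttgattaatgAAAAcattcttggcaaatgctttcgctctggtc

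The libraries held 11502184, 9737397 and 16521484 UMIs. The rRNA-rich barcodes contributed 665937, 102879 and 2186127 of them, and the comparison barcodes 2458912, 437913 and 5098413, so values of library 2 rest on the fewest counts. Cell barcodes recurred between libraries: each of the 402, 47 and 1450 rRNA-rich barcodes had 10 or more UMIs in both of the other libraries. Their median share of UMIs in the own library was 76.3%, 78.7% and 80.6%. Each of the 1014, 204 and 1215 comparison barcodes recurred in the same way, with median own-library shares of 74.6%, 77.6% and 78.9%. Read in the other libraries, barcodes kept their locus share. The rRNA-rich barcodes of library 1 had 34.5% of their summed UMIs from the locus in library 1, 36.8% in library 2 and 36.6% in library 3. Comparison barcodes of library 1 had 1.66%, 1.59% and 1.63%. With 80% required in the own library, only 10, 8 and 1031 rRNA-rich barcodes were left, and 24, 16 and 256 comparison barcodes. How much of each library's reads came from another was not tested. Under the 80% rule, 16 of the 20 genes named below for the largest differences from comparison barcodes lost their call, and the counts are in the closing section.

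The rRNA-rich barcodes formed 28.1% of the barcodes that passed in library 1 (402 of 1431, exact Clopper-Pearson 95% interval 25.8% to 30.5%), 18.6% in library 2 (47 of 253, 14.0% to 23.9%) and 51.7% in library 3 (1450 of 2804, 49.8% to 53.6%). The mean was 32.8% ± 17.1 (SD, n = 3). The intervals of the 3 libraries do not overlap; they cover counting error only.

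**Figure D1:**
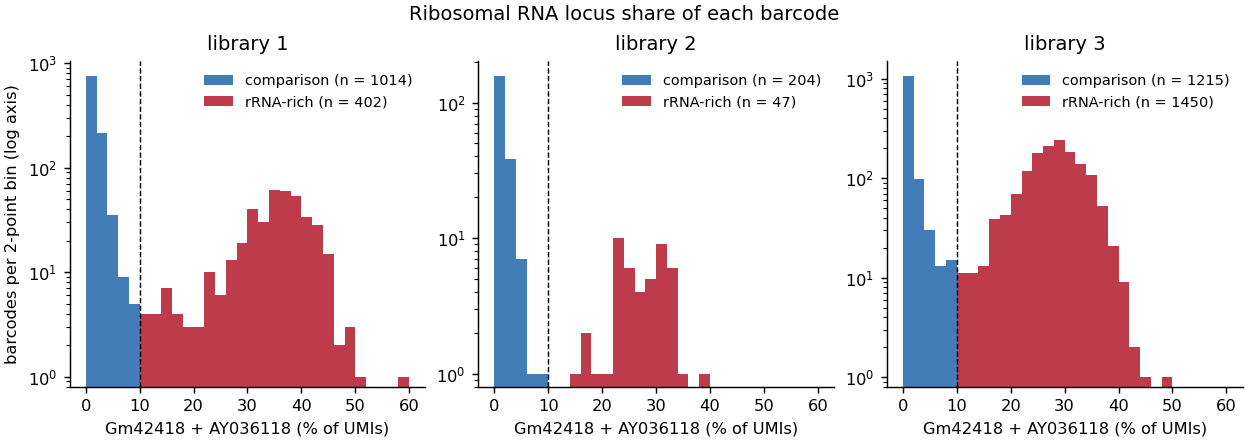
Histogram of the percent of a barcode's UMIs from Gm42418 and AY036118 in each library, in bins of 2 points, with the number of barcodes on a log axis. The rRNA-rich barcodes (red) form a mode of their own at medians of 36.0%, 26.6% and 28.3%, and few barcodes lie near the 10% threshold (dashed line) that separates them from the comparison barcodes (blue).

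The locus share had 2 separate modes. Its median in rRNA-rich barcodes was 36.0%, 26.6% and 28.3% in libraries 1, 2 and 3, and the middle 90% of barcodes spanned 19.0% to 44.1%, 18.0% to 33.8% and 18.0% to 36.5%. In comparison barcodes the median was 1.28%, 0.919% and 0.819%. Only 2.48%, 2.39% and 2.41% of barcodes that passed with under 2% Gm26917 lay between 5% and 15%. Just inside the threshold, at 10% to 12%, were 4, 0 and 11 barcodes, with median mitochondrial shares of 3.24% in library 1 and 0.825% in library 3. Just outside, at 8% to 10%, were 3, 1 and 12, with 9.06%, 3.94% and 8.94%. Most of the locus UMIs were assigned to Gm42418: in the summed rRNA-rich barcodes it took 32.5%, 25.3% and 25.7% of UMIs, AY036118 2.00%, 1.52% and 2.37%, and Gm26917 0.207%, 0.219% and 0.431%.

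The mitochondrial share is part of the rule through its 20% limit and of the name of the barcodes, and it is given as a description. A median rRNA-rich barcode had 0.438%, 0.347% and 0.270% of its UMIs from mt- genes, and a median comparison barcode 3.02%, 3.5% and 3.45%. With the locus genes taken out of the total, the medians were 0.681%, 0.480% and 0.373% against 3.07%, 3.55% and 3.47%. Under 1% mt- UMIs were found in 80.6%, 85.1% and 85.7% of rRNA-rich barcodes and in 5.92%, 7.84% and 5.51% of comparison barcodes. A minority departed from the name: 34, 2 and 55 rRNA-rich barcodes (8.46%, 4.26% and 3.79%) had over 5% mt- UMIs, and 6, 1 and 47 had none.

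**Figure D2:**
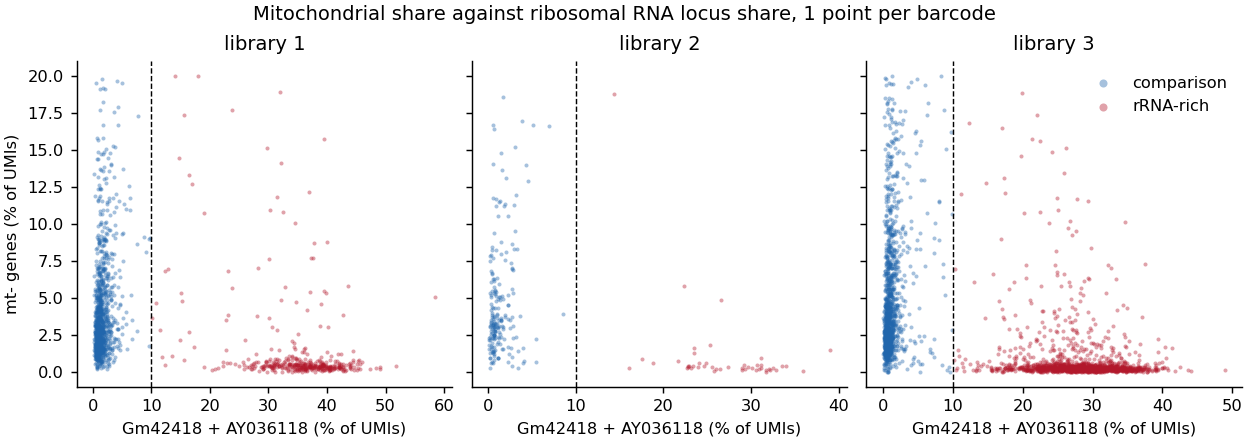
Percent of UMIs from mt- genes against percent from Gm42418 and AY036118, 1 point per barcode, in each library. Most rRNA-rich barcodes (red) lie along the bottom, at medians of 0.438%, 0.347% and 0.270%, while the comparison barcodes (blue) left of the dashed 10% line reach up to the 20% limit.

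The 34 and 55 rRNA-rich barcodes of libraries 1 and 3 with over 5% mt- UMIs were rich in the locus too, at a median of 30.9% and 24.9%. Lars2, described below, was no lower in them (22380 and 26118 CPM, counts scaled to the total of UMIs other than the rule's genes and multiplied by 1e6) as in the rest (19658 and 20825 CPM). Gm26870, a long noncoding RNA gene at chr9:3000282-3038313 on the minus strand, stood at 540.0 and 1586 CPM in them and at 567.5 and 463.4 CPM in the rest. It was thus higher beside mitochondrial UMIs in library 3 and not in library 1. Part of the library 3 value rests on a single barcode of 1463 UMIs at 13.1% mt- UMIs. That barcode held 35 of the 789 Gm26870 UMIs of all rRNA-rich barcodes in library 3.

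Their depth differed by library. The median UMI count of rRNA-rich barcodes was 1536.5, 2142 and 1456, against 1701.5, 1272 and 2247 for comparison barcodes, and 88.1%, 44.7% and 95.2% of them had 1000 to 2000 UMIs, against 63.4%, 87.3% and 43.2% of comparison barcodes, so library 2 went the other way. Few were deep: the highest held 14769, 5743 and 4509 UMIs, where comparison barcodes reached 46123, 40498 and 45895. They held a median of 594, 842 and 599 genes against 862.5, 724 and 1018. At an equal depth of 500 UMIs outside the rule's genes, a thinning at which no barcode was lost, the numbers of genes were close, at 358, 364 and 349 against 353, 367 and 347.

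Below the 1000 UMI filter the same kind of barcode was common in libraries 1 and 3. Over barcodes with 60% of their UMIs in the library, the share with at least 10% locus UMIs and under 2% Gm26917 was 46.7%, 6.75% and 74.7% at 1000 to under 1500 UMIs, and 73.0%, 20.9% and 72.9% at 100 to under 300 UMIs. Above it the share fell, to 17.2% and 20.1% at 2000 to under 3000 UMIs in libraries 1 and 3 and to 12.6% and 1.72% at 5000 and more. Library 2 had its highest share above 100 UMIs at 2000 to under 3000 UMIs, 72.7% of 33 barcodes. Its share was only 7.44% at 300 to under 500 UMIs and 2.79% at 500 to under 1000 UMIs. Below 50 UMIs a single Gm26917 UMI exceeds the limit, so the lowest bins understate the share.

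**Figure D3:**
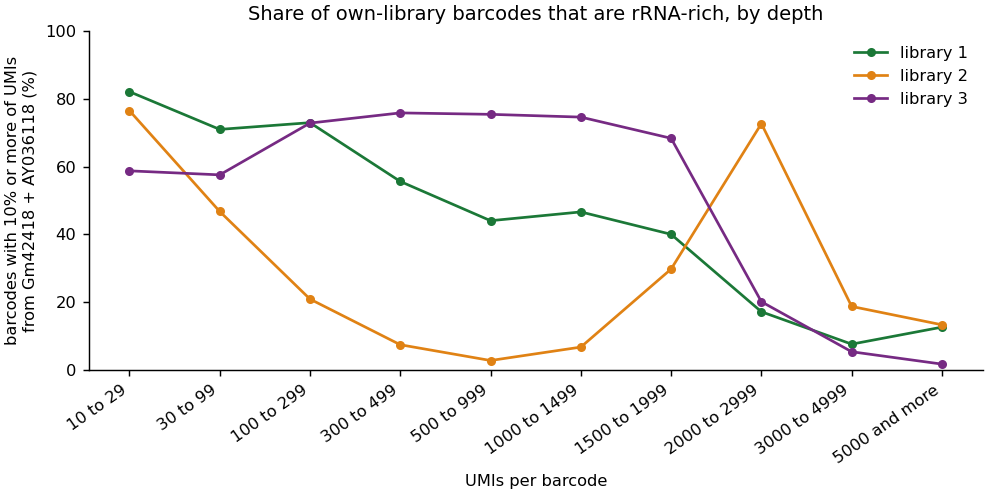
Percent of own-library barcodes with at least 10% of UMIs from Gm42418 and AY036118 and under 2% from Gm26917, by UMIs per barcode. Library 3 (purple) stays between 68.4% and 75.9% from 100 to under 2000 UMIs and falls to 20.1% at 2000 to under 3000, library 1 (green) goes from 82.2% at 10 to under 30 UMIs to 12.6% at 5000 and more, and library 2 (orange) has a peak of 72.7% at 2000 to under 3000 UMIs.

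The markers that came with the rule, Lars2, Amy1, Pnlip and Bc1, are described without a test because they were picked for this contrast. Lars2 codes for the mitochondrial leucyl-tRNA synthetase, a nuclear gene, and was the most abundant of them. It stood at 20005, 17357 and 21050 CPM in rRNA-rich barcodes and at 622.2, 740.1 and 665.9 CPM in comparison barcodes, a fitted log2 difference of 4.87 ± 0.22 (SE). The classes did not overlap and the 3 libraries were close within each. Within the kept barcodes Lars2 was higher at high than at low locus shares. In library 1 it was 266.6 CPM at under 1% locus UMIs, 7093 CPM at 10% to 15%, 6322 CPM at 15% to 20% and 26274 CPM at 40% and more. Library 2 had 179.0 CPM at under 1% and 20633 CPM at 30% to 40%, with 19449 CPM in the single barcode at 10% to 15%. In library 3 it was 247.2 CPM at under 1% locus UMIs, 1629 CPM at 2% to 5%, 13229 CPM at 15% to 20% and 25564 CPM at 30% to 40%. Barcodes of 10 to 100 UMIs with 60% of their UMIs in the library had 16493, 13112 and 17051 CPM. The other mitochondrial aminoacyl-tRNA synthetases did not show a rise of this size. Summed, they stood at 338.9, 354.8 and 294.1 CPM against 347.0, 396.2 and 321.8 CPM. Their median log2 difference was 0.12 beside -0.06 over all genes. Of 15 fitted, 0 passed the test in either direction. As 1.56% of all genes were called higher and 1.98% lower, this count alone does not set them apart.

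Bc1 was at 161.1, 177.4 and 106.9 CPM in rRNA-rich barcodes, 20.1, 22.4 and 6.67 CPM in comparison barcodes, and 278.1, 233.8 and 103.8 CPM in own-library barcodes of 10 to 100 UMIs. Each rRNA-rich value was above every comparison value. The 76 bases ahead of its A run have relatives in other transcripts. Of 18 fitted genes with a sense match of 50 or more bases at 85% identity, 4 were higher in rRNA-rich than in comparison barcodes and 0 lower, where 1.56% and 1.98% of all genes were. They were Lrrc17, Ccdc36, Dennd4a and Timm22. Timm22, a subunit of the mitochondrial inner membrane translocase, matches all 76 bases at 94.7% identity and stood at 343.6, 395.7 and 287.6 CPM against 125.1, 171.9 and 76.4 CPM (log2 difference 1.65 ± 0.19, adjusted p = 2.10e-13). Of 15 genes with an antisense match, 1 was higher and 0 lower. These matches were searched for after the values were seen, and whether UMIs of such genes come from Bc1-like RNA was not tested.

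Amy1 and Pnlip code for an amylase and for pancreatic lipase, secreted enzymes of acinar cells. Amy1 was at 132.7, 259.3 and 540.2 CPM against 4.38, 2.49 and 34.4 CPM, and Pnlip at 154.0, 491.2 and 452.8 CPM against 2.63, 9.97 and 50.5 CPM. Part of this rested on single barcodes. In library 3, 208 of the 834 Amy1 UMIs lay in a barcode of 2667 UMIs whose locus share of 10.2% was just inside the threshold, and without it Amy1 was at 406.1 CPM. In library 2 a barcode of 2169 UMIs held 8 of 19 Amy1 and 17 of 36 Pnlip UMIs, and without it the levels were 153.6 and 265.2 CPM. With 80% of UMIs required in the own library, the log2 difference of Amy1 was 2.48 in place of 4.32 and that of Pnlip 1.92 in place of 3.86. All values without the single barcodes above stayed above the comparison barcodes of the same library. Amylase genes are near-identical copies, and how the counting split their reads is not known here.

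Outside the rule's genes and these markers, few genes were called between rRNA-rich and comparison barcodes. Of 10569 genes fitted on UMIs summed per library and class (edgeR quasi-likelihood test with the library as a block), 165 were higher (1.56%) and 209 lower (1.98%) at an adjusted p under 0.05. Across 6363 genes of 20 CPM or more on average, log2 levels of both classes correlated at Pearson r of 0.95, 0.766 and 0.953 within libraries 1, 2 and 3, as a description over genes that share library and depth, with library 2 the shallowest. In single libraries, 6.19%, 28.6% and 7.43% of these genes differed by over 2-fold, and with 3 libraries many differences of that size do not pass the test, so a gene that was not called is not shown to be equal. The counts depended on library 3 and library 1: without library 3, 35 genes were higher and 18 lower, and without library 1, 96 and 86. They depended on scaling as well: 150 were higher and 389 lower on totals without TMM factors, where the median of all genes lay at -0.17 in place of -0.06, and 111 and 4120 with the rule's genes also counted in the totals, where it lay at -0.60. The differences below are relative to the median of all genes under TMM scaling.

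Among called genes with a mean of 100 CPM or more in the higher class and the same sign in all 3 libraries, the 10 with the largest rise included 2 long noncoding RNAs, a histone and 4 acinar proteases. Olfr1369-ps1 led, at 573.5, 13.6 and 17.5 CPM against 5.69, 4.98 and 7.31 CPM, but 234 of its 242 UMIs in library 1 lay in a single barcode of 6329 UMIs with 58.5% locus share, and its adjusted p was 0.266 without library 1. Gm26870 stood at 564.0, 518.5 and 511.1 CPM against 88.4, 24.9 and 83.7 CPM (log2 difference 2.91 ± 0.20, adjusted p = 2.92e-34). Every rRNA-rich value of it was above every comparison value. Snhg20, a small nucleolar RNA host gene, was at 227.5, 122.8 and 162.6 CPM against 67.4, 34.9 and 44.1 CPM (log2 difference 1.91 ± 0.20, adjusted p = 1.95e-16). Ccnb1ip1, a ubiquitin ligase known from meiotic recombination, was at 123.2, 109.2 and 142.5 CPM against 18.8, 12.5 and 41.5 CPM (log2 difference 2.27 ± 0.22, adjusted p = 4.76e-18). These 3 kept non-overlapping classes over all 3 libraries.

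Among the 10 genes with the largest fall under the same limits, 4 lost their call without library 3: Gm20186, Chka, Chil4 and Neat1. Gm20186, a noncoding RNA gene, was at 23.7, 13.6 and 12.3 CPM against 39.8, 167.0 and 99.2 CPM, below in every library, but its adjusted p was 0.146 without library 3. Chka, choline kinase, was at 52.1, 27.3 and 58.3 CPM against 109.0, 124.6 and 179.8 CPM (adjusted p = 0.0574 without library 3). Chil4 is a chitinase-like protein. Lrg1, a secreted glycoprotein, was at 118.5, 68.2 and 66.1 CPM against 203.9, 291.6 and 194.9 CPM, and Slc39a4, a zinc transporter, at 90.0, 54.6 and 66.1 CPM against 219.2, 274.1 and 148.0 CPM; these kept an adjusted p under 0.05 without any single library. Fosb, Fos, Kcnq1ot1, Neat1 and Hist1h2ap, the others of the 10, are given with their lists.

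Histone mRNAs of the replication-dependent kind end in a stem-loop and not in a poly(A) tail. Of 19 fitted, 11 rose, 1 fell and 7 passed in neither direction, with a median log2 difference of 0.85 beside -0.06 over all genes. Over all genes 1.56% rose and 1.98% fell. Hist1h1d, a linker histone, was at 139.8, 122.8 and 195.0 CPM against 30.6, 39.9 and 37.0 CPM (log2 difference 2.33 ± 0.21, adjusted p = 2.46e-21). Hist1h1e, another linker histone, stood at 239.3, 150.1 and 294.7 CPM against 105.5, 109.6 and 92.5 CPM, which do not overlap. Hist1h2ap was the member that fell, at 208.5, 150.1 and 85.5 CPM against 558.4, 428.6 and 144.1 CPM. Summed over the list, however, the levels differed by library, with log2 ratios of 0.12, -0.02 and 0.74. With both classes limited to 1000 to 2000 UMIs, 5 members rose and 5 fell, and without library 3 the counts were 4 and 1. The histones are a multigene family of near-identical copies, and reads could be split between them. In the same comparison, 1 of 22 S phase genes and 2 of 22 G2/M genes rose and 0 fell, against the same 1.56% and 1.98% of all genes. From both lists 0 rose without library 1, without library 3 or with no block.

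Genes of the acinar secretory program split by kind. Of the 15 fitted acinar proteases, 12 rose, 0 fell and 3 passed in neither direction, with a median log2 difference of 1.31. Among all genes 1.56% rose and 1.98% fell. Cpb1, carboxypeptidase B, was at 234.6, 204.7 and 803.2 CPM against 93.6, 44.9 and 214.9 CPM (log2 difference 1.84 ± 0.20, adjusted p = 2.63e-15). Cela3b, an elastase, was at 312.8, 272.9 and 529.9 CPM against 157.5, 72.3 and 178.1 CPM (log2 difference 1.49 ± 0.19, adjusted p = 3.35e-11). Ctrb1, chymotrypsinogen B and the most abundant, was at 4123, 3125 and 9094 CPM against 3914, 2108 and 7197 CPM and did not pass (log2 difference 0.35, adjusted p = 0.37). Summed over the list, the log2 ratio of the classes was 0.47, 0.98 and 0.58. The trypsinogens Try4, Try5 and Prss2, which rose, are near-identical copies whose reads could be split between them. Of the 15 proteases 9 rose without library 1, 9 without library 3, and 4 in a fit with no block for the library.

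Among amylases and lipases other than the 2 markers, 3 of 6 fitted rose and 0 fell, against 1.56% and 1.98% of all genes. The number that rose was 2 with no block or with DESeq2 and 0 of 4 fitted without library 3. Clps, colipase, stood at 1118, 777.8 and 2548 CPM against 907.1, 406.2 and 1437 CPM. Of 15 other acinar genes, 5 rose and 0 fell; 1 rose with no block, and 2 of 14 without library 3. Zg16, a zymogen granule protein, was at 59.2, 109.2 and 103.6 CPM against 6.13, 0 and 10.5 CPM, and Rnase1, the pancreatic ribonuclease, at 149.3, 232.0 and 429.5 CPM against 81.8, 44.9 and 234.9 CPM. Reg1, a secreted protein of acinar cells and the most abundant of the list, did not pass and lay lower in libraries 1 and 3, at 7218, 6536 and 12608 CPM against 7824, 6055 and 17506 CPM. As a result the summed list had log2 ratios of -0.05, 0.17 and -0.38, while its median over fitted genes was 0.57.

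Some ductal genes were lower. Of 24 fitted ductal genes, 0 rose and 5 fell, Spp1, Muc1, Onecut2, Ctse and Clu, with a median log2 difference of -0.40. Muc1, a membrane mucin, was at 168.2, 204.7 and 121.8 CPM against 284.9, 286.6 and 239.6 CPM. Onecut2, a transcription factor of duct and liver development, was at 310.4, 518.5 and 198.9 CPM against 549.6, 523.3 and 563.3 CPM, nearly alike in library 2. The most abundant members Tff1, a trefoil peptide, and Krt19, a duct keratin, did not pass, and Krt19 stood at 2230, 2688 and 1796 CPM against 2798, 2417 and 2264 CPM. Summed ductal log2 ratios were -0.33, 0.06 and -0.50, and the mean of -0.26 turned to 0.08 with a minimum of 2000 UMIs. The number of ductal genes that fell was 0 without library 3, 1 without library 1 and 1 with no block. Other settings gave more: 11 of 22 with both classes limited to 1000 to 2000 UMIs, and 10 of 24 without TMM factors. It was 12 of 24 without the 5% of barcodes with the most UMIs, and 0 rose in each of these settings. Of 10 fitted squamous genes, 1 fell (Krt6a, a stress keratin, at 0, 0 and 9.07 CPM against 3.5, 9.97 and 39.8 CPM) and 0 rose, and 0 fell without library 3, with no block or with DESeq2. This single call does not set the list apart from the 1.98% of all genes that fell. Its summed log2 ratios, however, were -0.34, -0.67 and -0.74, with a median over fitted genes of -0.51. At 1000 to 2000 UMIs in both classes, 3 of 9 fell and 1 rose. Without the 5% of barcodes with the most UMIs, 4 of 9 fell and 0 rose.

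Immediate early genes are switched on within minutes of stress or dissociation. Of 18 fitted, 7 fell and 0 rose, against 1.98% and 1.56% of all genes, with a median log2 difference of -0.51. Fos was at 125.6, 54.6 and 264.9 CPM against 334.3, 428.6 and 812.2 CPM (log2 difference -1.50 ± 0.21, adjusted p = 2.52e-09). Fosb, of the same family, stood at 33.2, 40.9 and 57.6 CPM against 94.5, 139.5 and 387.4 CPM (log2 difference -2.08 ± 0.25, adjusted p = 2.52e-12), with no overlap between the classes. Jun, in contrast, did not pass, at 452.6, 450.3 and 570.7 CPM against 384.2, 446.1 and 816.7 CPM. With both classes limited to 1000 to 2000 UMIs, 2 fell and 1 rose. Without library 1, and likewise without library 3, 3 fell, and 1 with no block.

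Of 6 fitted long noncoding RNAs that stay in the nucleus, 0 rose and 2 fell. Neat1, the scaffold of paraspeckles, was at 428.9, 532.2 and 350.4 CPM against 626.6, 829.8 and 1484 CPM (log2 difference -1.16 ± 0.19, adjusted p = 8.58e-07; 0.169 without library 3), and Kcnq1ot1, an imprinted antisense RNA, was lower too. Malat1 was at 6564, 6823 and 5034 CPM against 4203, 4852 and 8096 CPM, higher in libraries 1 and 2, lower in library 3, and not past the test. Nucleolar proteins and subunits of RNA polymerase I, the machinery that makes ribosomal RNA, had 1 of 27 called higher (Taf1d, a subunit of the promoter selectivity factor of polymerase I) and 0 lower, near the 1.56% and 1.98% of all genes; 0 were called without library 1 or with no block. Npm1, the most abundant nucleolar protein of the list, was at 5322, 5158 and 4997 CPM against 4289, 5373 and 4486 CPM.

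Of 36 cytosolic ribosomal protein genes, 28 nuclear-coded genes of the respiratory chain and 20 abundant cytosolic mRNAs, 0 passed the test in either direction against comparison barcodes, with medians of 0.16, 0.09 and 0.04. Cox7c, a nuclear-coded subunit of cytochrome oxidase, was at 1448, 1310 and 1533 CPM against 1463, 1306 and 1316 CPM. In the same barcodes the summed mitochondrially coded mRNAs were at 30360, 23716 and 13129 CPM against 57457, 72739 and 81033 CPM. A single barcode at 18.8% mt- UMIs held 50.8% of these UMIs in library 2, and a barcode at 20.0% held 16.2% in library 1; without the top barcode the 3 levels were 25862, 12180 and 12822 CPM. Of the stress lists, 0 of 10 heat shock genes, 2 of 17 genes of protein folding stress (Ddit3 and Atf4, both transcription factors) and 1 of 12 p53 and apoptosis genes (Bbc3) rose, and 2 of the folding list (Hsp90b1 and Dnajb9, both chaperones of the endoplasmic reticulum) fell. Without library 3, 0 members of these stress lists were called, and without library 1 or with no block 1 of the folding list rose and 0 fell (all genes: 1.56% higher, 1.98% lower).

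**Figure D4:**
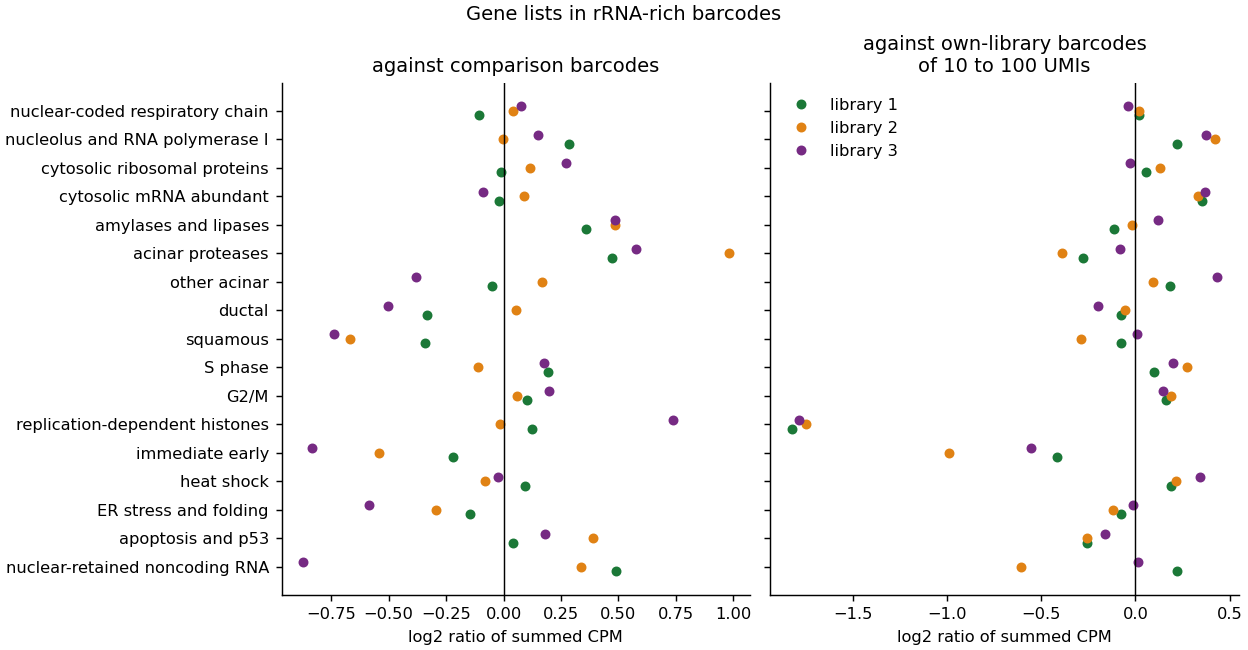
Log2 ratio of the summed CPM of each gene list in rRNA-rich barcodes to comparison barcodes (left) and to own-library barcodes of 10 to 100 UMIs (right), 1 point per library. Against comparison barcodes, acinar proteases lie above 0 and immediate early genes below 0 in all 3 libraries; against low barcodes, replication-dependent histones stand apart at -1.82, -1.74 and -1.78.

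Epcam, the marker of the sort, was at 526.1, 641.3 and 458.6 CPM in rRNA-rich barcodes and 633.6, 909.6 and 775.4 CPM in comparison barcodes, and did not pass (adjusted p = 0.11). Markers of other cell types were low in both classes, and their part in the results was not tested. Over the whole lists, fibroblast genes summed to 2.37 to 27.3 CPM in rRNA-rich and 2.49 to 17.1 CPM in comparison barcodes, endothelial genes to 13.6 to 28.5 and 12.5 to 17.9 CPM, and myeloid genes to 13.6 to 26.1 and 9.97 to 19.1 CPM. Mesothelial genes summed to 31.1 to 54.6 and 22.4 to 82.4 CPM, tuft genes to 11 to 40.9 and 23.5 to 42.4 CPM, and hepatocyte genes to 0 to 26.1 and 7.48 to 25.8 CPM. The lymphoid, erythroid, Schwann and endocrine lists stayed at or below 13.6 CPM in both classes of every library. At such levels 4 of these genes were called higher in rRNA-rich barcodes, each at 0 to 13.6 CPM there. They were 2 of 4 fitted erythroid genes (Hba-a1 and Hbb-bs), 1 of 5 endothelial (Emcn) and 1 of 3 myeloid (S100a8). Of all genes 1.56% were called higher. The calls rest on few UMIs: Hba-a1 had 0, 0 and 5 in libraries 1, 2 and 3, and S100a8 had 2, 0 and 2. With library 3 left out, 0 genes of these lists were called higher.

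The barcodes of 10 to 100 UMIs, taken as a whole, were a different mixture. Against them 1830 of 10569 genes were higher in rRNA-rich barcodes (17.3%) and 2759 lower (26.1%). Genes of blood and vessel led those lower. Hba-a2, an alpha globin, had 0 UMIs in the rRNA-rich barcodes of all libraries and 380, 569 and 736 CPM in the low barcodes, at least 376-fold lower with a floor of 3 counts over the group. Car4, Slco1c1 and Abcb1a, the latter pair transporters of brain and other capillaries, were likewise at 0, and at least 302-fold, 297-fold and 292-fold lower. Flt1, a receptor for vascular growth factor, had 1 UMI in them and 1778, 2340 and 2189 CPM in the low barcodes. These genes lay mostly in barcodes shared between libraries: 31.4%, 66.3% and 43.6% of low barcodes had under 60% of their UMIs in the library, and Flt1 stood at 3093, 2764 and 3450 CPM in those and at 19.9, 164.7 and 4.58 CPM in the rest.

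Among the genes higher than in all low barcodes, Erh, a small nuclear protein of mRNA processing, was at 447.9, 354.8 and 294.1 CPM against 101.5, 58.0 and 68.2 CPM (log2 difference 2.26 ± 0.19, adjusted p = 5.47e-25). Mki67, a marker of dividing cells, was at 277.3, 327.5 and 143.2 CPM against 93.5, 75.3 and 59.8 CPM. Of the G2/M list 21 of 22 rose, of the ductal list 17 of 24 and of the acinar proteases 14 of 15, while 17 of 18 immediate early genes fell. The shares over all genes were 17.3% higher and 26.1% lower than in all low barcodes. These low barcodes include those shared between libraries.

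Set against low barcodes with 60% of their UMIs in the library, the rRNA-rich barcodes differed in 226 of 7482 genes that were higher (3.02%) and 277 that were lower (3.7%). These low barcodes had 27.9%, 21.4% and 19.3% of their summed UMIs from the locus, compared with 34.5%, 26.9% and 28.0% in the rRNA-rich barcodes, and 3.33%, 4.61% and 3.87% from mt- genes, compared with 1.92%, 1.69% and 0.927%. Gm26917 took 1.18%, 1.15% and 2.39% of their UMIs, a value the rule caps in the rRNA-rich barcodes. Levels correlated across the 6363 genes at r of 0.931, 0.671 and 0.945. Of 15 acinar proteases 0 were higher and 1 lower, of 22 ductal genes 0 and 1, and of 9 squamous genes 0 and 0. The median log2 differences of these lists were -0.07, -0.06 and -0.03 beside -0.05 over all genes.

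The replication-dependent histones stood apart in this comparison: 18 of 19 were lower and 0 higher, with a median log2 difference of -1.82. The shares over all genes, for this and the lists below, were 3.7% lower and 3.02% higher. Hist1h4d was at 73.5, 54.6 and 108.8 CPM in rRNA-rich barcodes and 721.1, 478.2 and 1015 CPM in the own-library low barcodes. Levels of Hist1h1d were 287.5, 239.1 and 416.7 CPM in the latter, above the rRNA-rich barcodes, which in turn were above the comparison barcodes. Ccnb1ip1, at 625.2, 541.9 and 853.2 CPM, and Timm22, at 797.0, 1185 and 436.5 CPM, followed the same order. So did Snhg20, at 369.3, 271.0 and 282.4 CPM, and Gm26870, at 715.2, 743.8 and 618.1 CPM. Of this pair, Gm26870 was not called against the own-library low barcodes. Immediate early genes were lower as well (8 of 16, 0 higher). Fos was not among the 8 and stood at 168.3, 244.4 and 338.8 CPM between both classes of larger barcodes. Higher than in the low barcodes were 9 of 36 ribosomal protein genes, against 2 lower, and 4 of 20 abundant cytosolic mRNAs, such as Tmsb4x, an actin-binding peptide, at 7313, 9143 and 6538 CPM against 4422, 5265 and 4081 CPM.

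The rRNA-rich barcodes of a library varied less than comparison barcodes in most measures. Thinned to 500 UMIs outside the rule's genes, they had a mean of 11.1, 8.87 and 20.2 UMIs of the acinar lists and 6.53, 7.98 and 5.11 of the ductal list. The variance of the ductal count was 1.33, 0.673 and 1.23 times its mean, where binomial sampling alone gives 0.987, 0.984 and 0.990, and 6.15, 4.91 and 7.77 times in comparison barcodes. For the acinar count the ratio was 2.09, 3.22 and 4.71, against 24.3, 11 and 25.4. In library 3 the middle 90% of rRNA-rich barcodes had 12 to 29 acinar UMIs, close to the 13 to 28 of binomial sampling, while comparison barcodes spanned 0 to 53. Across 94, 89 and 91 genes with a mean of 1 UMI or more in both classes, the median ratio of variance to mean was 1.07, 1.03 and 1.05 in rRNA-rich and 1.14, 1.15 and 1.19 in comparison barcodes, and it was lower in rRNA-rich barcodes for 72, 64 and 88 of them. Genes with a ratio over 1.5 in rRNA-rich barcodes included Malat1 in libraries 1 and 3 (2.54 and 2.71) and Ctrb1 in libraries 2 and 3 (2.17 and 1.6). Lars2, too low in comparison barcodes to be among these genes, had 3.34, 1.57 and 3.4.

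Acinar and ductal UMIs occurred in the same barcode. At least 5 of each were found in 70.6%, 87.2% and 56.2% of rRNA-rich barcodes and in 13.0%, 19.6% and 29.1% of comparison barcodes, at the same 500 UMIs. Their counts had Pearson r of -0.09, 0.05 and -0.08 across the 402, 47 and 1450 rRNA-rich barcodes and of -0.40, -0.44 and -0.35 across the 1014, 204 and 1215 comparison barcodes; both are descriptions, and the counts share a fixed total. More acinar than ductal UMIs were counted in 78.4%, 61.7% and 99.4% of rRNA-rich barcodes. Of the comparison barcodes, 32.2%, 31.9% and 56.3% had more acinar than ductal UMIs, and 28.5%, 24.0% and 11.8% had 0 acinar UMIs.

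**Figure D5:**
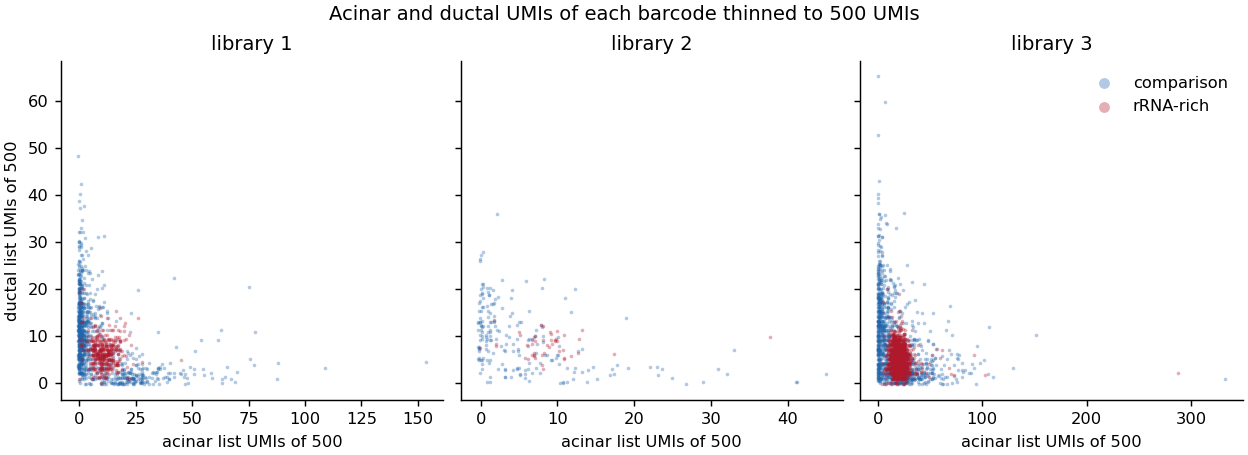
Ductal against acinar UMIs of each barcode after thinning to 500 UMIs, with a small random offset to separate whole numbers. The rRNA-rich barcodes (red) form a compact cloud around means of 11.1, 8.87 and 20.2 acinar and 6.53, 7.98 and 5.11 ductal UMIs, while comparison barcodes (blue) spread along both axes.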

How the data were processed

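Each library has a table of raw UMI counts per gene and barcode, deposited by the authors with no normalization and no cell calling; the file headers name Cell Ranger 3.0.2 (mm10 and Seurat 3.1 are named in the submitters' processing notes). The annotation and strand setting the authors used are not recorded in the labels or headers. Coordinates, transcripts and sequences are those of the GENCODE annotation of mm10. The members, gene lists and marker genes were chosen with earlier results of these data known.

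Raw UMIs were summed per library and class (rRNA-rich, comparison, 10 to 100 UMIs), giving 9 sums. Gm42418, AY036118, Gm26917 and all mt- genes were left out of counts and totals. edgeR 4.0.16 (R 4.3.3) fitted 10573 genes after filterByExpr with TMM factors, the library as a block and 4 residual degrees of freedom, and p-values were adjusted by Benjamini and Hochberg at 0.05 over all genes. The 4 markers Lars2, Amy1, Pnlip and Bc1 were in the fit but not in any count. CPM are UMIs divided by the total outside the rule's genes, times 1e6. The 2 large classes of a library come from the same tumour, which is why the library is a block; their deviations from the class means correlated at 0.091, 0.078 and 0.273. Genes named by rule were the 10 highest and lowest by log2 difference per contrast among those called, of the same sign in 3 of 3 libraries and with a mean of 100 CPM in the higher class, plus up to 4 of the most abundant members per list; others named are members called in a list. The low barcodes with 60% of UMIs in the library were an alternative and were fitted on their own. Sums, thinning and figures used Python 3.11.15. No doublet removal was applied; leaving out the 5% of barcodes with the most UMIs was an alternative. The fit was tested on simulated data.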

Additional observations from a re-analysis of the deposited data

Results flagged for a closer look

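Barcodes of 100 to under 1000 UMIs entered no comparison, as they lie below the filter of 1000 UMIs and above the low class. Among those with 60% of their UMIs in the library, 2577 of 4126 in library 1, 162 of 1469 in library 2 and 4864 of 6546 in library 3 had at least 10% of UMIs from Gm42418 and AY036118 and under 2% from Gm26917, the values that select rRNA-rich barcodes. These shares are 62.5%, 11% and 74.3%. By the same values, with no limit on genes or mt- UMIs, 609 of 1703 (35.8%), 54 of 274 (19.7%) and 1887 of 3447 (54.7%) barcodes of 1000 or more UMIs were of this kind. The share was lower than at 100 to under 1000 UMIs in libraries 1 and 3 and higher in library 2.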

How the results depend on the processing

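Each summary was recomputed under other settings, and the cause of each shift was not tested. The summaries were the share of rRNA-rich barcodes, the difference between the classes in median mitochondrial share, the counts of genes and the log2 ratios of summed lists. The 3 libraries limit every p, and library 2 rests on 47 rRNA-rich barcodes.

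The share of rRNA-rich barcodes (32.8%) lay between 23.3% and 39.9% with a library left out. The median mitochondrial share of rRNA-rich minus comparison barcodes averaged -2.97 percentage points over the libraries. This difference was -3.53 with no own-library filter, -5.16 with 80% of UMIs in the library and -2.63 with at most 10% mt- UMIs. From 2000 UMIs it was -4.12, and with a library left out -3.16 to -2.87.

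Against comparison barcodes, the 165 higher and 209 lower genes became 30 and 5 with 80% in the own library, 265 and 317 with no mt- limit, 38 and 37 from 2000 UMIs, 289 and 359 from 500 UMIs, 321 and 390 with no limit on Gm26917, 251 and 335 with both classes at 1000 to 2000 UMIs, and 75 and 46 with DESeq2. Lower genes alone numbered 124 with at most 10% mt- UMIs, 374 without the 5% of barcodes with the most UMIs, 389 without TMM and 4120 with the rule's genes in the totals and no TMM; the last setting was chosen after seeing the data. Without the replicate block for the library, 69 were higher and 46 lower. With a library left out, 35 to 241 were higher and 18 to 248 lower.

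Against barcodes of 10 to 100 UMIs, the 1830 higher and 2759 lower genes became 338 and 1588 with 80% in the own library, 476 and 1386 from 2000 UMIs, 1025 and 1560 with low barcodes of 10 to 50 UMIs, and 226 and 277 with own-library low barcodes. Higher genes numbered 1091 with DESeq2 and 952 with the rule's genes in the totals and no TMM. With a library left out, 816 to 2161 were higher and 1552 to 2565 lower.

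Acinar proteases (0.68) were at 0.33 with no own-library filter, 1.32 with 80% in the own library, and 0.52 to 0.78 with a library left out. The ductal list (-0.26) was at 0.081 from 2000 UMIs, -0.59 at 1000 to 2000 UMIs, and -0.42 to -0.14 with a library left out. Immediate early genes (-0.53) were at -0.88 with no own-library filter, -0.15 with no limit on Gm26917, -0.22 without the top 5%, -0.17 at 1000 to 2000 UMIs, and -0.69 to -0.38 with a library left out. Signs turned for mitochondrial aminoacyl-tRNA synthetases (0.31 with 80% in the own library, 0.083 without the top 5%, 0.23 at 1000 to 2000 UMIs), G2/M genes (-0.23) and p53 and apoptosis genes (-0.00704) with 80% in the own library, endothelial genes (-0.60) with no own-library filter and tuft genes (0.52) from 2000 UMIs.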
